A study of Mus musculus with 5 samples.

Results

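Elovl3 (ENSMUSG00000038754) is 1 of the 64 genes on the panel of this targeted single-cell series, and it was taken by its row in the deposited count matrix and followed through all 5 libraries. It was chosen because its level differed strongly between libraries taken at different clock hours, so its levels are given as a description with no test. The cells were hepatocytes isolated from liver, from male C57BL/6J mice of wild-type genotype fed normal chow. Age and the number of mice in a library are not stated in the sources used here. For 3 days beforehand, all mice went 16 h of each day without food and ate during the other 8 h. On the last day they had chow and water holding 20% sucrose, and the fed library (0 h) was taken after 4 h of this feeding, at clock hour 13. The other libraries came from mice fasted from that hour on, and were taken after 8, 16, 24 and 30 h without food, at clock hours 21, 5, 13 and 19 respectively. Hours of fasting and clock hour therefore cannot be told apart, except between 0 h and 24 h, which share a clock hour. With a single library for each time point, no difference below has a replicate error. All intervals are at 95% and cover counting error only.

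Elovl3 encodes a membrane-bound enzyme of the endoplasmic reticulum that carries out the first, condensing step of fatty acid elongation, in which carbons from malonyl-CoA are added to saturated and monounsaturated long-chain acyl-CoAs. In mouse liver its transcript is known for a strong day-night rhythm and for higher levels in males, and it is also known from brown fat and skin glands. Hepatocytes differ along the axis from the portal tract to the central vein. Cyp2f2 marks the periportal end, and Cyp2e1 and, next to the vein, Glul mark the pericentral end. The gene lies on chromosome 19 of GRCm38 (46131897 to 46135694, plus strand), with 2 annotated transcripts of 4 exons each that differ in their first and last exons. The last 10 bases overlap Pitx3, which lies on the minus strand.

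The libraries held 7208 to 12153 barcodes each and 3979629 to 11288725 UMIs (unique molecules counted) of panel genes. Median depth was 219 UMIs per barcode after 8 h, 651 after 16 h and 1033 to 1202.5 in the other libraries. Alb took 69.4% to 71.8% of each library's UMIs. All 6 panel genes of endothelial, immune and mesenchymal cells (Cdh5, Cd68, Mrc1, Ptprc, Pdgfra and Pdgfrb) had UMIs in every library, with a summed level of 220 UMIs per 1000000 panel UMIs (CPM) after 8 h and 29.7 to 76.2 CPM in the others. The panel held no bile duct marker of the list used. Of 47235 distinct barcode sequences, 238 occurred in more than 1 library.

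Elovl3 was lowest in the libraries taken at clock hour 13 and highest at clock hour 21. It had 591 UMIs in the fed library, 15762 after 8 h, 5187 after 16 h, 871 after 24 h and 16307 after 30 h. These gave 78.3 CPM in the fed library (exact Poisson interval 72.1 to 84.9) and 3961 CPM after 8 h (3899 to 4023). The level was 843 CPM after 16 h (820.0 to 866), 83.5 after 24 h (78.0 to 89.2) and 1445 after 30 h (1422 to 1467). In falling order the libraries were thus 8 h, 30 h, 16 h, 24 h and 0 h, and only the intervals of 24 h and 0 h overlapped among neighbours in that order. Whether these 2 libraries differed beyond counting error depended on the denominator, with a log2 ratio of 24 h over 0 h of 0.093 (-0.059 to 0.25) in CPM, 0.21 (0.057 to 0.36) without Alb and 0.31 (0.16 to 0.46) by UMIs per barcode.

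From one library to the next, the level fell 4.70-fold between 8 h and 16 h (log2 -2.23, -2.28 to -2.19) and 10.1-fold between 16 h and 24 h (log2 -3.34, -3.44 to -3.23). It then stood 17.3-fold higher after 30 h than after 24 h (log2 4.11, 4.01 to 4.21). Between 16 h and 30 h the ratio was 1.71-fold. In CPM the span from the lowest to the highest library was 50.6-fold. Among the 52 panel genes that reached 100 UMIs in every library, the other 51 had a median span of 2.28-fold and a maximum of 36.0-fold. Counted per barcode, the span of Elovl3 was 19.7-fold and those of 3 genes were wider, Srebf1 (87.1-fold), Elovl6 (33.7-fold) and Fasn (27.0-fold). Elovl3 was chosen for these levels, so its place among the genes is a description.

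The place of the 30 h library depended on the scale. Counted as UMIs per barcode, with no correction for depth, Elovl3 stood at 0.0820 in the fed library, 1.30 after 8 h, 0.548 after 16 h, 0.102 after 24 h and 1.62 after 30 h. On this scale 30 h lay above 8 h (log2 0.32), whereas in CPM it lay below (log2 -1.46, -1.49 to -1.42). The 8 h library had the fewest panel UMIs per barcode, and on this scale the median log2 ratio of panel genes to the fed library was -1.68 after 8 h, -0.78 after 16 h, 0.18 after 24 h and 0.096 after 30 h.

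Depth within a library moved with the level as well. Among barcodes with at least 300 and under 1000 panel UMIs, Elovl3 stood at 126 CPM in the fed library, 3659 after 8 h, 896 after 16 h, 144 after 24 h and 2422 after 30 h. Among barcodes with 1000 or more it stood at 58.2, 2986, 429, 69.8 and 1179 CPM in the same order of libraries. The deeper class thus had the lower level in each library, and the order of the libraries was the same in both classes. Only 151 barcodes of the 8 h library had 1000 or more UMIs.

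**Figure D1:**
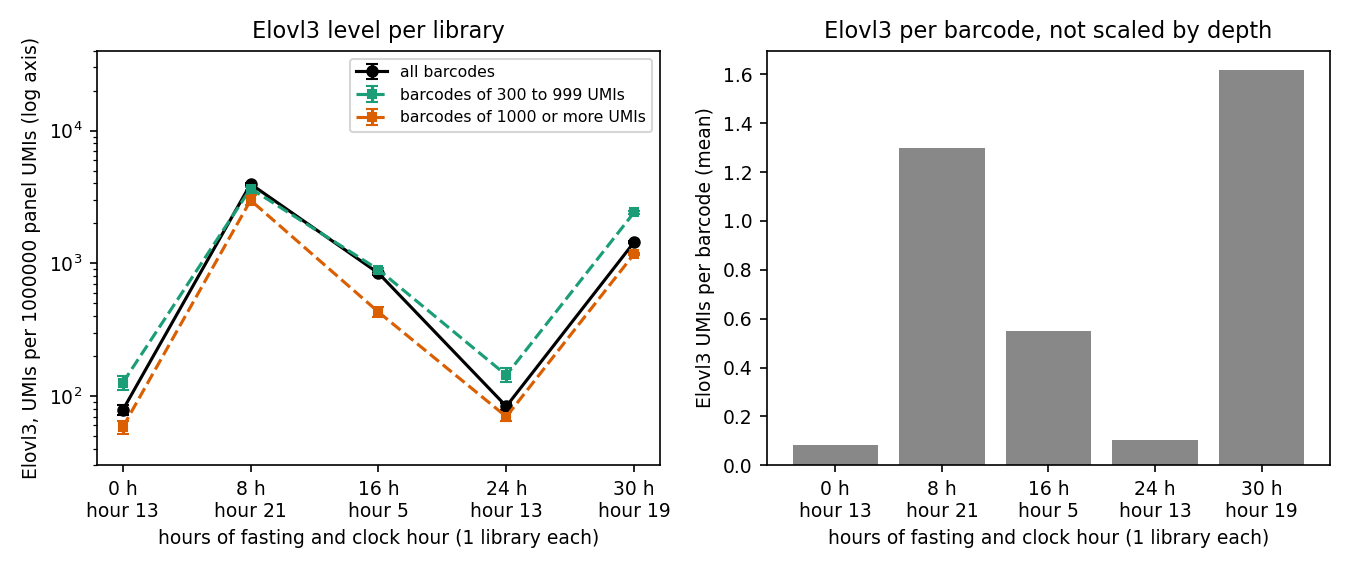
Elovl3 per library, as UMIs per 1000000 panel UMIs on a log axis (left, points with 95% Poisson intervals, for all barcodes and for 2 classes of depth) and as mean UMIs per barcode (right, bars). The 0 h and 24 h libraries are lowest in every series, and 30 h lies below 8 h on the left (1445 against 3961 CPM) but above it on the right (1.62 against 1.30).

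The panel held 7 of the 12 genes listed for the fatty acid elongation cycle, all of them elongases, and 5 of these had at least 100 UMIs in each comparison with 0 h. In CPM after 8 h, 2 of the 5 were over 2-fold higher than in the fed library (Elovl3 and Elovl5) and 1 was over 2-fold lower (Elovl6), against 17.9% and 12.5% of the 56 genes compared. After 16 h, 1 was higher and 2 were lower, against 10.7% and 28.6% of genes. After 24 h the counts were 0 and 1 (8.93% and 23.2% of genes), and after 30 h 1 and 1 (16.1% and 26.8%). Elovl3 was chosen on these comparisons, so nothing is read from its part in the counts. By UMIs per barcode, 1 was higher and 3 were lower after 8 h, and the counts at the other times were the same. On that scale the median panel gene was itself over 2-fold lower after 8 h (log2 -1.68), and shares over all genes were not counted. In CPM the median log2 ratio of the 5 genes was -0.53 after 8 h, 0.26 after 16 h, 0.093 after 24 h and 0.28 after 30 h. Over all 56 genes it was 0.047, -0.15, -0.12 and -0.071.

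The elongases went different ways. Elovl5, which extends polyunsaturated acyl chains, had log2 ratios to 0 h of 1.53, 0.79, 0.27 and 0.51 in order of fasting time, although by UMIs per barcode it stood lower after 8 h (2.45) than in the fed library (2.72). Elovl6, which extends palmitate and belongs to the lipogenic program, stood at -2.21, -3.78, -4.51 and -5.17. Elovl1, an elongase of very long saturated chains, lay between -1.02 and -0.76 in all 4 fasted libraries, and Elovl2, an elongase of long polyunsaturated chains, between -0.53 and 0.28. By UMIs per barcode Elovl2 was lower after 16 h (3.40) than in the fed library (4.56), the reverse of its order in CPM. None of the other 4 elongases had the order of Elovl3 over all 5 libraries, and Elovl5 came closest. Elovl7 was rare, with 7 UMIs in the fed library, 67 after 8 h, 14 after 16 h, 15 after 24 h and 19 after 30 h, that is 0.927 CPM in the fed library (0.373 to 1.91) and 16.8 CPM after 8 h (13.0 to 21.4). Elovl4 had at most 1 UMI in a library.

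Other lists of lipid and fasting genes were counted in CPM, with the shares of all 56 genes given above for the same comparisons. Of 9 panel genes of fatty acid and triglyceride synthesis, none was over 2-fold higher than in the fed library at any time, and 5, 7, 6 and 7 were over 2-fold lower in order of fasting time (12.5%, 28.6%, 23.2% and 26.8% of all genes). Fasn, the fatty acid synthase, stood at log2 ratios of -2.64, -3.87, -4.93 and -4.85. None of 3 panel desaturases passed 2-fold in either direction in CPM. By UMIs per barcode all 3 were over 2-fold lower after 8 h, but so was the median panel gene on that scale (log2 -1.68). Shares over all genes were not counted per barcode, so nothing particular to a list is read from its per-barcode counts. Of 6 panel genes of the fasting response, 3, 3, 2 and 4 were over 2-fold higher (17.9%, 10.7%, 8.93% and 16.1% of all genes), and 1 was lower after 24 h. Per barcode, 1, 2, 3 and 4 were higher, and 2 were lower after 8 h and none after 24 h. Pck1, which encodes a gluconeogenic enzyme, stood at log2 CPM ratios of 1.58, 2.06, 1.66 and 2.58, although by UMIs per barcode it was lower after 8 h (8.58) than in the fed library (9.19). After 24 h Fasn and Pck1 both lay further from their fed level in CPM than Elovl3 did, while Glul (log2 0.013) and Alb (0.048) lay nearer. Elovl3 was chosen for its levels, so nothing is read from this comparison. Of the control genes, Actb stood at log2 ratios of -1.43 after 24 h and -1.05 after 30 h, and Alb took a near equal share of every library.

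**Figure D2:**
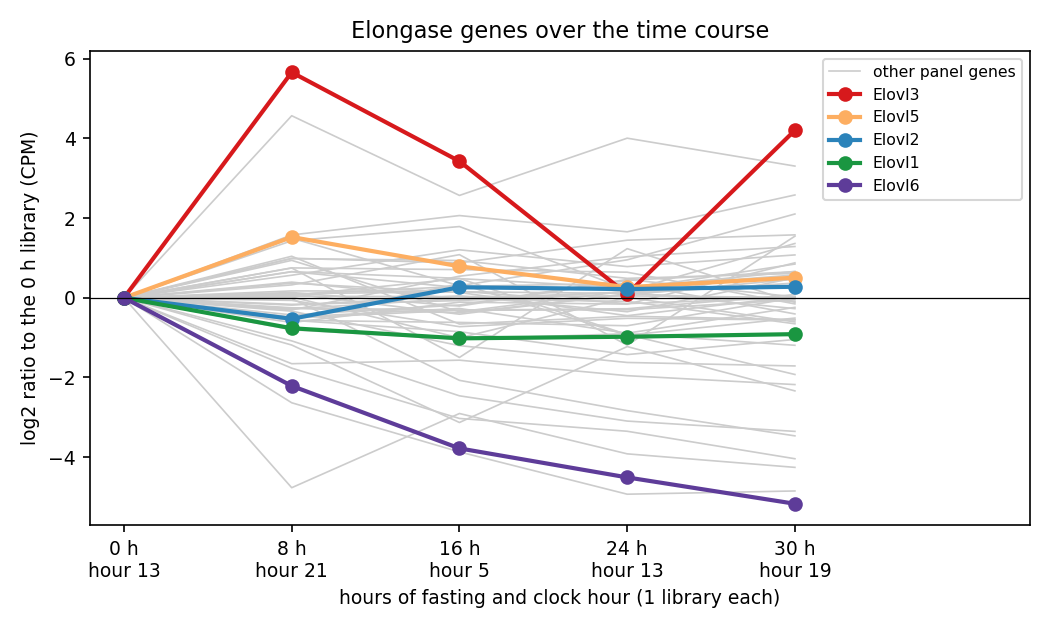
Log2 ratio of CPM to the 0 h library for Elovl1, Elovl2, Elovl3, Elovl5 and Elovl6 (coloured lines) and for the other panel genes that reached 100 UMIs in every library (grey), with 1 library per point. Elovl3 reaches 5.66 after 8 h, lies at 0.093 after 24 h and at 4.21 after 30 h, while Elovl6 declines to -5.17.

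The genes whose order over the 5 libraries was most like that of Elovl3 were found by counting, for each of the 10 pairs of libraries, whether both genes were higher in the same one, in CPM. None of the 51 genes compared matched it in all 10 pairs, and 3 matched in 9. These were Elovl5, Cyp27a1 and G6pc, with a root mean square difference between standardised log2 profiles of 0.49, 0.51 and 0.60. Next came Hsd3b7, with 8 pairs and a difference of 0.60. Cyp27a1 encodes a sterol hydroxylase of bile acid synthesis, G6pc the catalytic subunit of glucose-6-phosphatase, and Hsd3b7 a later enzyme of bile acid synthesis. Their spans from lowest to highest library were 2.88-fold for Elovl5, 1.58-fold for Cyp27a1, 1.98-fold for G6pc and 3.46-fold for Hsd3b7. The counts of pairs were the same without Alb in the denominator but lower on the scale of UMIs per barcode, where Elovl5 and Hsd3b7 matched in 6 pairs, Cyp27a1 and G6pc in 5, and the most for any gene was 7. The panel carried none of the core clock genes on the list used, and of that list's 23 clock and clock-output genes it held 3, Cyp7a1, Cyp8b1 and Nr0b2. Of these, 0, 1, 1 and 2 were over 2-fold higher than in the fed library in order of fasting time, and 1 was lower after 16 h, in CPM, beside 17.9%, 10.7%, 8.93% and 16.1% of all 56 genes higher and 28.6% lower after 16 h. Per barcode, 0, 0, 2 and 2 were higher, 1 was lower after 8 h and 2 after 16 h. On that scale the median panel gene stood at log2 -1.68 after 8 h and -0.78 after 16 h, and shares over all genes were not counted. Cyp7a1, the rate-limiting enzyme of classic bile acid synthesis, stood at 698 CPM in the fed library, 1173 after 8 h, 247 after 16 h, 1642 after 24 h and 645 after 30 h. It was thus highest in the 24 h library, at clock hour 13, where Elovl3 was low.

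To compare barcodes at 1 depth, each was thinned at random to 200 panel UMIs, and shallower barcodes were left out (52 in the fed library, 5807 after 8 h, 522 after 16 h, 4 after 24 h and 26 after 30 h). An Elovl3 UMI was then found in 1.91% of barcodes in the fed library (exact Clopper-Pearson interval 1.61% to 2.26%). The share was 46.7% after 8 h (45.4% to 47.9%), 15.2% after 16 h (14.5% to 16.0%), 1.89% after 24 h (1.62% to 2.21%) and 25.0% after 30 h (24.2% to 25.9%). Without thinning, the shares over all barcodes were 7.09%, 57.7%, 34.0%, 8.87% and 65.0% in the same order. Thinning put 8 h above 30 h, the reverse of the unthinned order. The median depth before thinning was 485 UMIs after 8 h and 1150 after 30 h among the barcodes kept.

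These shares cannot be read as shares of expressing cells. Of the 105 barcodes of the 8 h library with at least 3 UMIs of the 6 genes of other liver cells, 52 held an Elovl3 UMI (49.5%, median depth 101 UMIs). Their Elovl3 level was 6961 CPM (5545 to 8630), against 5232 CPM (5063 to 5405) in all barcodes of that library with under 200 UMIs. In the other libraries such barcodes numbered 4 to 36, of which 1 of 36 held an Elovl3 UMI in the fed library, 2 of 4 after 16 h, 4 of 17 after 24 h and 8 of 18 after 30 h. Alb made up 49.4% (8 h) to 67.1% (30 h) of the UMIs of such barcodes, beside 71.3% in the whole library after 8 h. A smaller share of Alb raises the CPM of other genes, and the level without Alb was not computed for them. The 6961 and 5232 CPM after 8 h are therefore not read as a difference in Elovl3. The part of free RNA in the Elovl3 shares was not tested.

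The spread of Elovl3 over barcodes exceeded counting error in each library where the gene was high. Thinned barcodes had a mean of 0.769 Elovl3 UMIs after 8 h, 0.196 after 16 h and 0.342 after 30 h. The Fano factor, the variance over the mean, was 1.53, 1.40 and 1.49, where barcodes of equal content would give 0.996 to 0.999. After 8 h, 53.3% of thinned barcodes had 0 Elovl3 UMIs, 28.3% had 1 and 1.24% had 5 or more, with a maximum of 8. After 30 h, 75.0% had 0 and 0.268% had 5 or more. Relative to the mean, the excess variance (variance minus mean, over the squared mean) was 0.693 after 8 h, 2.03 after 16 h and 1.43 after 30 h, the smallest value being in the library with the highest level. The 10% of barcodes with most Elovl3 held 41.4% of the thinned Elovl3 UMIs after 8 h, 73.4% after 16 h and 56.2% after 30 h. This share also rises as the mean falls, and it was 100% in the fed and 24 h libraries. Its value for barcodes of equal content was not computed, so it does not measure spread beyond counting error.

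Panel genes with a thinned mean within 2-fold of that of Elovl3 give a scale for these values. After 8 h, 4 of 23 such genes had a higher Fano factor, and their median was 1.22. After 16 h it was 2 of 15 genes (median 1.10), and after 30 h 2 of 17 (median 1.06). In the fed library the Fano factor of Elovl3 was 1.06. After 24 h it was 1.50, but 1 barcode with 14 Elovl3 UMIs set this value, since without it the factor was 1.11. Where Elovl3 was low, the Fano factor was thus near 1 or rested largely on a single barcode. At such low means (0.0200 and 0.0210 thinned UMIs), a Fano factor near 1 does not show a small spread. The excess variance over the squared mean was 3.21 in the fed library and 23.8 after 24 h, with that barcode kept.

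**Figure D3:**
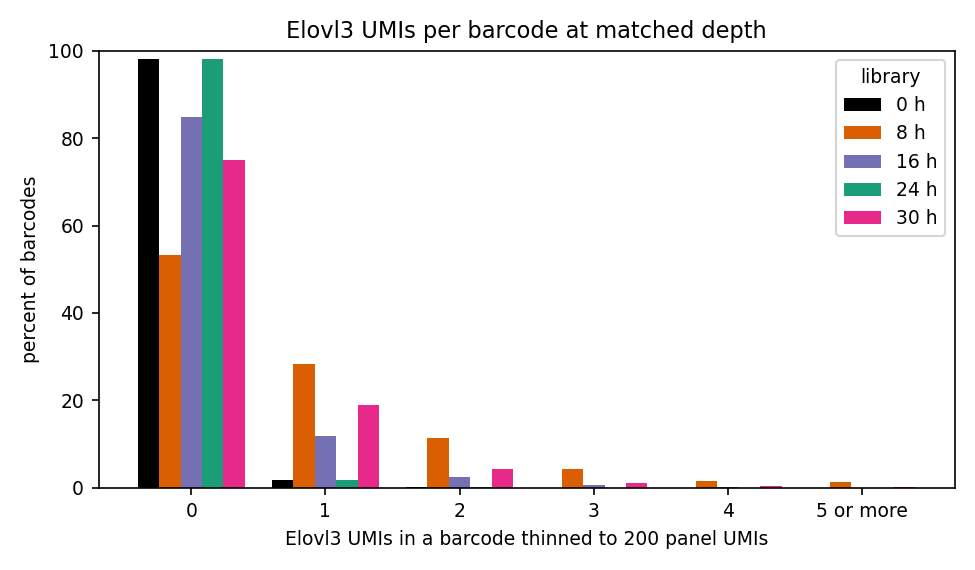
Percent of barcodes (bars, 1 colour per library) by number of Elovl3 UMIs after each barcode was thinned to 200 panel UMIs. In the 0 h and 24 h libraries, 98.1% of barcodes have 0, against 53.3% after 8 h, 84.8% after 16 h and 75.0% after 30 h.

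For the position in the lobule, barcodes with at least 10 UMIs of Cyp2e1 and Cyp2f2 together were ranked within each library by the ratio of the first to the second and cut into 5 bins of 20% each. This kept 92.6% of barcodes in the fed library, 42.1% after 8 h, 82.5% after 16 h, 95.1% after 24 h and 96.4% after 30 h. Of the listed markers that took no part in the ranking, Gulo and Hsd17b13 followed it, while Pck1 did not do so in every library in CPM. Gulo, an enzyme of vitamin C synthesis on the pericentral marker list, was 16.7-fold to 30.6-fold higher in the pericentral bin than in the periportal bin. Hsd17b13, on the periportal marker list, was at 0.308 to 0.493 times its periportal-end level there. Pck1, also on the periportal list, had a log2 ratio of pericentral over periportal CPM of -0.42 in the fed library and 0.021 after 8 h. Its ratio was -0.15 after 16 h, -0.10 after 24 h and 0.20 after 30 h. Without Alb in the denominator Pck1 was lower at the pericentral end in all 5 libraries, with -1.22, -0.88, -1.20, -1.17 and -0.81 in order of fasting time. By UMIs per barcode its ratio lay between -1.13 (fed) and -0.50 (30 h). The zones are those of this ranking and may differ from zones drawn another way.

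Elovl3 was higher at the pericentral end in all 5 libraries, at the low clock hours and at the high ones. In the fed library it went from 45.8 CPM (35.7 to 57.7) in the periportal bin to 272 CPM (240 to 307) in the pericentral bin. After 8 h the levels were 2470 CPM (2353 to 2592) and 7852 CPM (7574 to 8137). The pair was 401 and 3044 CPM after 16 h, 32.7 and 269 CPM after 24 h, and 883 and 4188 CPM after 30 h. The log2 ratio of pericentral over periportal end was 2.57 in the fed library (2.19 to 2.97), 1.67 after 8 h (1.58 to 1.76), 2.93 after 16 h (2.78 to 3.07), 3.04 after 24 h (2.69 to 3.40) and 2.25 after 30 h (2.18 to 2.32). Of all Elovl3 UMIs in ranked barcodes, the pericentral bin held 45.1% in the fed library, 27.2% after 8 h, 43.7% after 16 h, 43.1% after 24 h and 40.3% after 30 h.

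Along 10 bins of 10%, numbered from the periportal end, the level was higher near the pericentral end, and how far the first bins differed varied between libraries. After 30 h bins 1 to 6 lay between 865 and 982 CPM, bin 7 stood at 1112, bin 8 at 1640, bin 9 at 3394 and bin 10 at 4966. After 16 h bins 1 to 6 lay between 387 and 477 CPM, and bins 9 and 10 stood at 2915 and 3185 CPM with overlapping intervals. Bins of the same number need not be the same zone in each library. In bin 6, Cyp2e1 made up 68.7% of the Cyp2e1 and Cyp2f2 UMIs after 8 h. That share was 10.4% in the fed library, 23.7% after 16 h, 57.7% after 24 h and 28.5% after 30 h. In the 8 h library the Elovl3 level was 5060 CPM in bin 6, against 3192 in bin 5. Bin 9 of that library (8180, 7802 to 8573) stood above bin 10 (7436, 7031 to 7858), with overlapping intervals. Without Alb in the denominator the order was reversed (18865 and 19145), again with overlapping intervals. In that library 712 ranked barcodes held no Cyp2f2 UMI and were tied, more than the 511 of bin 10. Chance thus decided which of them fell in bin 9. In the fed library 924 barcodes without a Cyp2e1 UMI were tied across bins 1 and 2 in the same way. After 24 h the level was 27.2 CPM (18.6 to 38.3) in bin 1, 37.6 in bin 2 and 51.4 (39.9 to 65.2) in bin 3. Bins 4, 5 and 6 stood at 35.0, 51.5 and 62.6 CPM (48.2 to 79.9 in bin 6). The level thus differed among the first bins as well, but without a steady rise. Without Alb the intervals of bins 1 and 3 overlapped, while those of bins 1 and 6 did not (86.8 to 179 and 181 to 300). Bins 9 and 10 of the 24 h library had overlapping intervals (268 and 271 CPM), and in the fed library bin 10 was the highest (367 CPM, 313 to 426).

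**Figure D4:**
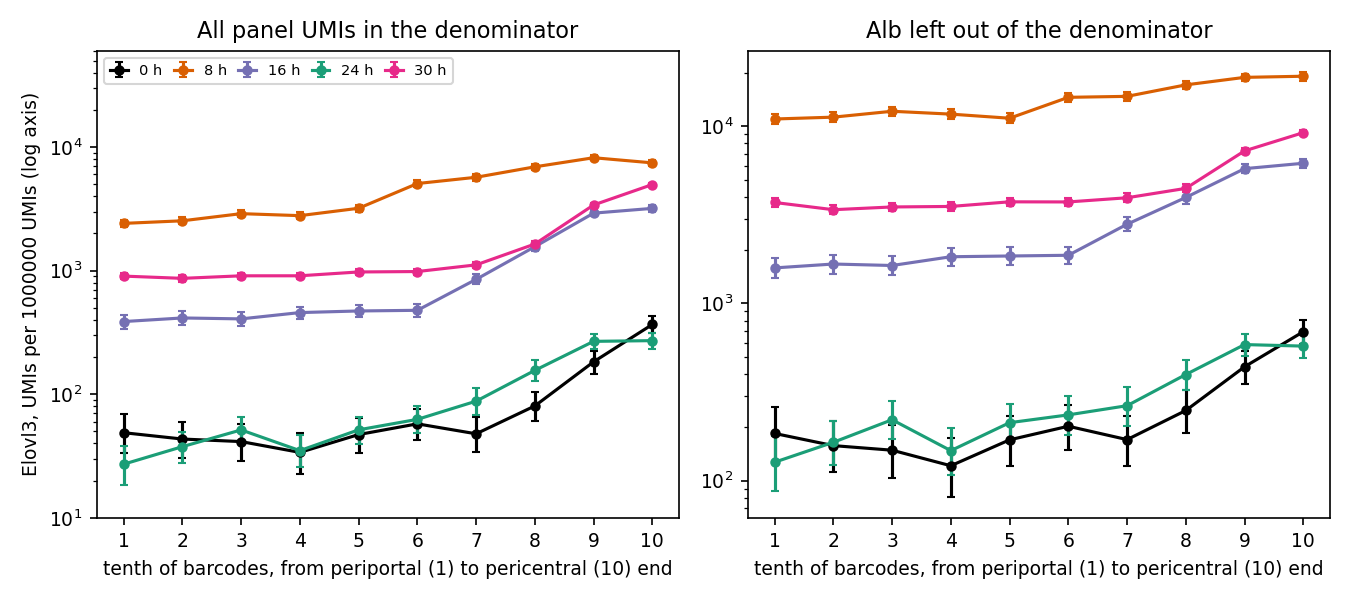
Elovl3 UMIs per 1000000 UMIs (log axis, points with 95% Poisson intervals) in 10 bins of the barcodes ranked by Cyp2e1 over Cyp2f2, from the periportal (1) to the pericentral (10) end, with all panel UMIs (left) or without Alb (right) in the denominator. In all 5 libraries bin 10 lies above bin 1 in both panels, for example 4966 against 902 CPM after 30 h on the left.

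The size of this ratio depended on the denominator, since Alb, which is in it, stood at 495824 CPM in the pericentral and 750164 CPM in the periportal bin after 30 h. Without Alb the log2 ratio was 1.77 in the fed library, 0.77 after 8 h, 1.87 after 16 h, 1.98 after 24 h and 1.23 after 30 h. By UMIs per barcode it was 1.86, 0.85, 2.10, 2.19 and 1.54. It was above 0 in all 5 libraries on each scale. Pericentral-end barcodes were also shallower, with a median of 654 UMIs in the fed library against 1143 at the periportal end. Within barcodes of at least 200 and under 500 UMIs, the log2 ratio in CPM was 2.03 after 8 h (1.82 to 2.25). In that class it was 3.19 after 16 h (2.54 to 3.93) and 2.45 after 30 h (1.63 to 3.41), with no value given for the fed and 24 h libraries. Within barcodes of at least 500 and under 1000 UMIs, the log2 ratio in CPM was 3.61 in the fed library (2.64 to 4.77), 1.38 after 8 h (1.26 to 1.50), 2.86 after 16 h (2.68 to 3.03), 3.04 after 24 h (1.88 to 4.51) and 2.27 after 30 h (2.10 to 2.45). In the deepest class, of 1000 or more UMIs, it was 1.90 in the fed library (1.39 to 2.42), 0.59 after 8 h (-0.053 to 1.19, from 7 pericentral-end barcodes), 1.81 after 16 h (0.89 to 2.62, from 9), 3.04 after 24 h (2.66 to 3.44) and 2.05 after 30 h (1.96 to 2.13). The ratio was thus lower in the deepest class than in that of 500 to under 1000 UMIs in the fed, 8 h, 16 h and 30 h libraries. The intervals of these 2 classes overlapped after 30 h, and their values after 24 h were alike.

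The share of barcodes with an Elovl3 UMI after thinning followed the same axis. After 8 h it was 36.3% (33.4% to 39.4%) in the periportal bin and 70.5% (67.2% to 73.7%) in the pericentral bin. After 30 h it was 16.0% and 51.2%, after 16 h 6.98% and 41.6%, in the fed library 0.749% and 5.27%, and after 24 h 0.491% and 5.35%. Differences between the 5 bins made up 12.5% of the variance of thinned Elovl3 counts after 8 h, 13.3% after 16 h and 13.0% after 30 h, while 36.1%, 28.8% and 33.4% of the variance lay above counting error. After 8 h and 30 h, the Fano factor was also higher within the pericentral bin (1.61 and 1.53) than within the periportal bin (1.23 and 1.16), where the mean was lower.

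Most panel genes had a CPM ratio above 0 on this scale, with a median log2 ratio of 0.56 (30 h) to 0.92 (16 h). Over 2-fold higher at the pericentral end were 20.0% of the 50 genes compared in the fed library, 31.9% of 47 after 8 h, 38.8% of 49 after 16 h, 30.6% of 49 after 24 h and 20.0% of 50 after 30 h, leaving out the pair used for the ranking. Over 2-fold higher at the periportal end were 1 of 50 genes in the fed library, 4.26% after 8 h, 4.08% after 16 h, 2.04% after 24 h and 4.00% after 30 h. Elovl3 ranked 3 or 4 from the top in each library. Cyp7a1 and Gulo stood above it in all 5, and Glul at 8, 16 and 24 h. The other elongases lay lower, between -0.49 (Elovl6 after 30 h) and 1.44 (Elovl6 after 8 h) in CPM. Without Alb they lay between -1.51 and 0.54, most of them below 0, whereas Elovl3 stayed above 0.

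**Figure D5:**
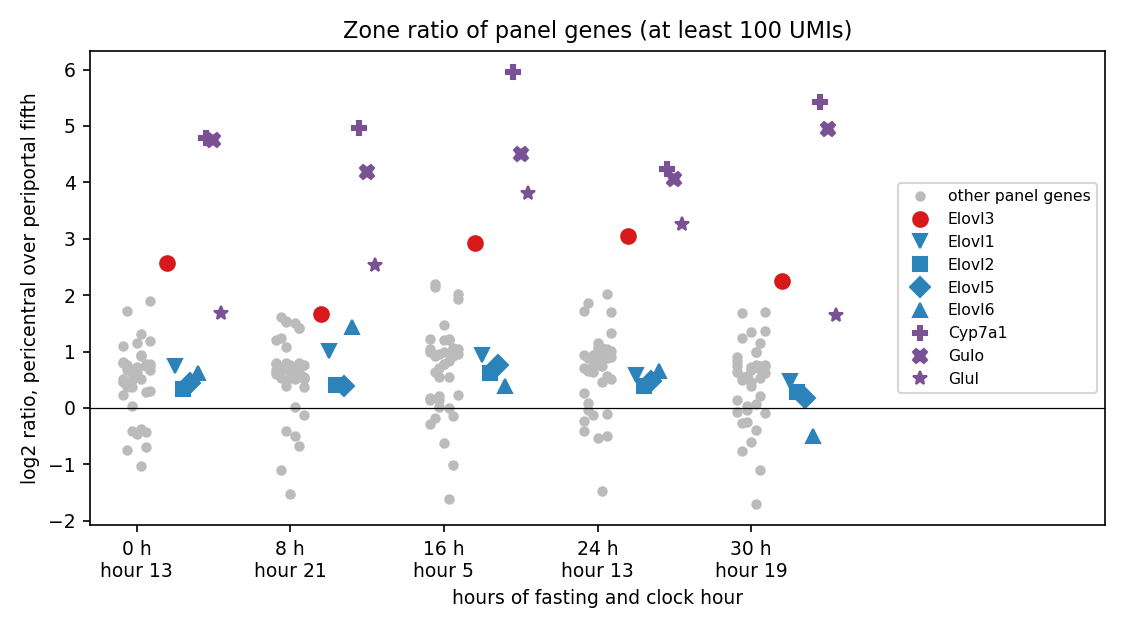
Log2 ratio of CPM in the pericentral over the periportal bin for panel genes with at least 100 UMIs in these bins (points), by library, without Cyp2e1 and Cyp2f2. Elovl3 (red) lies between 1.67 and 3.04, below Cyp7a1 and Gulo and above Elovl1, Elovl2, Elovl5 and Elovl6 (blue) in every library.

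A ratio of 2 genes needs no denominator. Because probes capture genes unequally, only its change between zones is read here, not its size. For every 1000 Elovl5 UMIs there were 18.4 of Elovl3 in the periportal and 79.9 in the pericentral bin in the fed library. The values were 399 and 965 after 8 h, 102 and 457 after 16 h, 11.9 and 70.5 after 24 h, and 245 and 1026 after 30 h. The zone ratio of Elovl3 thus exceeded that of Elovl5 by 1.28 after 8 h (log2, 1.17 to 1.38), the smallest of the 5 libraries, and by 2.56 after 24 h (2.22 to 2.91), the largest. Against Elovl6 the excess was 1.96 in the fed library (1.58 to 2.34), 0.23 after 8 h (0.063 to 0.40), 2.54 after 16 h, 2.39 after 24 h and 2.74 after 30 h (2.52 to 2.96). Against Elovl1 and Elovl2 it was above 0 in all 5 libraries, from 0.67 (Elovl1 after 8 h) to 2.65 (Elovl2 after 24 h).

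The difference between time points was seen at both ends of the lobule. Against the fed library, Elovl3 after 8 h was 54.0-fold higher at the periportal end (log2 5.75, 5.41 to 6.12) and 28.9-fold higher at the pericentral end (log2 4.85, 4.67 to 5.04). After 16 h it was 8.75-fold and 11.2-fold higher, and after 30 h 19.3-fold and 15.4-fold. After 24 h, with the same clock hour as 0 h, the log2 ratio was -0.013 at the pericentral end (-0.25 to 0.22). At the periportal end it was -0.48 (-0.96 to -0.0051) in CPM and -0.20 (-0.67 to 0.28) without Alb.

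The log2 zone ratio after 8 h minus that in the fed library was -0.90 (-1.29 to -0.51), with an interval of -1.39 to -0.61 without Alb. Markers moved in different directions between the same libraries. The same difference was -0.57 for Gulo and 0.85 for Glul. The 8 h library also had the fewest ranked barcodes, and the part of the ranking in this difference was not tested. For 16 h and 24 h against 0 h the differences were 0.36 (-0.049 to 0.76) and 0.47 (-0.041 to 0.98). For 30 h against 0 h the difference was -0.32 (-0.71 to 0.060) in CPM and -0.54 (-0.92 to -0.15) without Alb.

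Glul marks the layer of hepatocytes next to the central vein. Within the pericentral bin, thinned barcodes with at least 3 Glul UMIs had a higher Elovl3 CPM than the rest of that bin. After 8 h it was 10935 CPM (8996 to 13168, 54 barcodes) against 7810 CPM (7364 to 8275). Glul was left out of the denominator but Alb was not, and the level without Alb was not computed. The levels were 5307 (4113 to 6740) and 2970 CPM (2770 to 3181) after 16 h, 627 (365 to 1004) and 267 CPM (211 to 333) after 24 h, and 6836 (5531 to 8357) and 4254 CPM (4047 to 4469) after 30 h. In the fed library the intervals overlapped, with 502 CPM (202 to 1033, 7 UMIs) and 267 CPM (207 to 340). The share of these barcodes with an Elovl3 UMI was 85.2% (72.9% to 93.4%) against 69.4% (66.0% to 72.7%) after 8 h. It was also higher in the Glul-rich set in the other libraries, but there the intervals overlapped. After 30 h, for example, it was 61.1% (48.9% to 72.4%) and 50.8% (48.5% to 53.1%).

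Barcodes rich in Elovl3 were rich in pericentral genes. After 8 h, 444 thinned barcodes had 3 or more Elovl3 UMIs and 3385 had 0. Among 47 genes, with Elovl3 left out of the denominator, the 3 with the highest log2 ratio between these sets were Cyp2e1 (2.50), Cyp7a1 (2.12) and Gulo (2.01), and the 3 lowest were Cyp2f2 (-0.73), Hsd17b13 (-0.57) and Alb (-0.29). After 30 h, with 188 and 7550 barcodes, the highest of 49 genes were Gulo (3.43), Cyp2e1 (2.78) and Cyp7a1 (2.64), and the lowest were Hsd17b13 (-1.81), Cyp2f2 (-1.53) and Cyp39a1 (-1.38), an oxysterol hydroxylase of bile acid synthesis. The barcodes rich in Elovl3 had been shallower before thinning, with a median of 400.5 against 491 UMIs after 8 h and 845 against 1194 after 30 h.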

How the data were processed

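Hepatocyte libraries were made with the 10x Genomics 3' kit (version 3) and enriched for a gene panel by hybrid capture, per the labels' protocols. The authors deposited unnormalized UMI counts, which Cell Ranger 6.0.1 wrote, per the file headers. The build was mm10, per the submitters' processing notes. How barcodes were called is not stated in the sources used here. All 47473 barcodes got a library from the deposited barcode table, and none was filtered. Doublets were not called, and the 5% of barcodes with most UMIs were left out as an alternative. CPM is UMIs per 1000000 panel UMIs, summed over a library or zone. Because probes capture genes unequally, no gene was called higher or lower than another, and ratios of 2 genes were used only to compare zones. Ratios have exact conditional binomial intervals, and differences of ratios normal ones. Ties in the zone ranking were broken at random (seed 1). The ratios between libraries were tested on simulated counts, and the thinning was checked on barcodes of the 30 h library. The zone ranking and the measures of spread were not tested in this way. The genes named are Elovl3, panel genes of fixed lists, the 4 most alike over libraries, and the 3 highest and 3 lowest in barcodes with 3 or more Elovl3 UMIs. Elovl3, the lists and the tests were chosen with earlier results of these data known. Computations used Python 3.11.15, numpy 2.4.6 and scipy 1.17.1, and gene models were from GENCODE M21.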

Additional observations from a re-analysis of the deposited data

How the results depend on the processing

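Of 71 recomputed values of 19 Elovl3 results, 41 lay within the counting interval of the reported value and 30 outside it. None of the log2 ratios among them changed sign, while shares and Fano factors cannot be negative. Leaving out the 5% of deepest barcodes, median-of-ratios scaling and a minimum of 300 UMIs moved none of the values they were run on beyond that interval. Counting UMIs per barcode put the log2 ratio to 0 h at 3.98 after 8 h, 2.74 after 16 h and 0.31 after 24 h. Thinning to 100 UMIs gave shares of 0.957% in the fed library, 32.4% after 8 h, 9.47% after 16 h, 0.888% after 24 h and 14.3% after 30 h. It gave Fano factors of 1.23 after 8 h, 1.18 after 16 h, 1.02 after 24 h and 1.26 after 30 h. Without the barcode richest in Elovl3, an alternative chosen after seeing the data, the Fano factor after 24 h was 1.11. The zone ratio (log2, pericentral over periportal end) without Alb in the denominator was 1.77 in the fed library, 0.77 after 8 h, 1.87 after 16 h, 1.98 after 24 h and 1.23 after 30 h. By UMIs per barcode it was 1.86, 0.85, 2.10, 2.19 and 1.54 in that order. Without Alb, Cyp2e1, Cyp2f2 and Glul, chosen after seeing the data, it was 1.93, 0.97, 2.17, 2.37 and 1.74. With 10 bins in place of 5 it was 2.46 after 30 h. With at least 3 zone UMIs per barcode, also chosen after seeing the data, it was 1.50 after 8 h. For the spans, likeness and lists, counting UMIs per barcode was also chosen after seeing the data, and it moved 14 of 48 counts of list members beyond the ratio of 3 to 2. No paired analysis was possible because each time point had 1 library. The intervals of the zone ratio in the fed and 24 h libraries rest on 71 and 82 Elovl3 UMIs in the periportal bin, and after 8 h 5807 of 12153 barcodes were too shallow for thinning.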

Other observations

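In the 24 h library, 1 barcode held 14 Elovl3 UMIs among 410 panel UMIs, and the next highest barcode held 7. It carried 25 Cyp2e1, 2 Cyp2f2 and 1 Glul UMIs and accounted for 1.61% of that library's Elovl3 UMIs. In the 8 h library, the Elovl3 level declined with depth, from 5232 CPM in barcodes under 200 UMIs (5063 to 5405) to 4423 at 200 or more and under 300 (4185 to 4670), 3659 at 300 or more and under 1000 (3589 to 3730), and 2986 in deeper ones (2734 to 3255).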
